A study of Mus musculus with 8 samples.

Results

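Old haematopoietic stem cells (HSCs) that differ in autophagy were compared within the same mice, with 3 autophagy-high (AThi) and 3 autophagy-low (ATlo) libraries of the 8 libraries in the series. All cells came from bone marrow of steady-state mice of genotype Gfplc3/Gfplc3, which carry green fluorescent protein fused to the autophagosome protein LC3. HSCs of 3 mice older than 24 months were split by sorting into the 33% with the lowest GFP signal, called AThi, and the 33% with the highest, called ATlo. The other 2 libraries, from unsplit HSCs of mice 8 to 12 weeks old, enter no comparison here. Each mouse therefore gave both fractions, and the pairs carry the tags O10, O11 and O12. Of 19909 genes in the deposited table, the 13611 with a base mean of 100 or more normalized counts were compared. That mean is taken over all 8 libraries, the young ones included. The last gene inside that limit was Gm49654 at 100.06 and the first outside was Mex3b at 99.818.

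Autophagy encloses cell material in a membrane that carries lipid-bound LC3 and delivers it to the lysosome, where LC3 on the inner membrane is degraded along with the cargo. A GFP-LC3 fusion is lost in the same way, so a dim cell is read as one with more autophagic degradation. The gate sees protein, not mRNA, and GFP brightness also depends on how much of the fusion a cell makes. HSCs are mostly quiescent cells at the top of blood formation, and in old mice they are more numerous, enriched for platelet-biased cells and poorer at making lymphocytes. In bulk libraries, fewer cells with a transcript and less of it per cell cannot be told apart.

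ATlo libraries were deeper than their AThi partners in every mouse, by 1.7, 1.35 and 1.34 times for O10, O11 and O12, with 33960216 to 61341946 reads per library. Ribosomal RNA was counted from the mitochondrial genes mt-Rnr1 and mt-Rnr2 and the nuclear gene Rn18s, where present. This RNA took more of the reads in AThi of every mouse, with 36.1% against 31.2% in O10, 31.0% against 27.1% in O11 and 34.9% against 34.4% in O12. The part of depth and ribosomal RNA in the results was not tested. The HSC check list was present throughout: all 10 HSC markers had reads in every library, and their summed level was 114000 to 139900 normalized counts in AThi and 84850 to 106800 in ATlo. B cell marker mRNA was high in mouse O12, with a summed level of 32210 in AThi and 15350 in ATlo against 2041 to 5134 in the other 4 libraries. The immunoglobulin gene Ighm was at 20937 in AThi and 7314 in ATlo of mouse O12 and at 25.3 to 63.5 in the other 4. Xist, the RNA of the inactive X chromosome, was likewise at 5810 and 2747 in the AThi and ATlo libraries of mouse O12 and at 32.5 to 171 in the other 4. Counts are therefore also given without that mouse. Whether such RNA bears on other genes was not tested.

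Between the fractions of the same mouse, 980 genes differed, or 7.2% of those tested, at a Benjamini-Hochberg adjusted p below 0.05 in limma with the mouse as a block. Of these, 394 (2.89%) were higher in AThi and 586 (4.31%) were lower. All 980 moved the same way in all 3 mice, which 44.4% of all tested genes did. In 881 of the 980 the 3 AThi values did not overlap the 3 ATlo values, as was so for 24.2% of all tested genes (13.5% with ATlo above and 10.8% with AThi above). The fall was at least 1 on the log2 scale for 270 genes, and the rise for 153. The median difference of all tested genes was -0.000954. Without mouse O10 937 genes passed, 369 of them higher. Without mouse O11 211 genes passed, 62 of them higher, and without mouse O12 611 passed, 217 of them higher. These fits on 2 pairs rest on fewer degrees of freedom. Without the mouse as a block 505 passed, 151 higher and 354 lower, and DESeq2 with the block on recovered reads gave 1865, 910 higher and 955 lower.

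**Figure D1:**
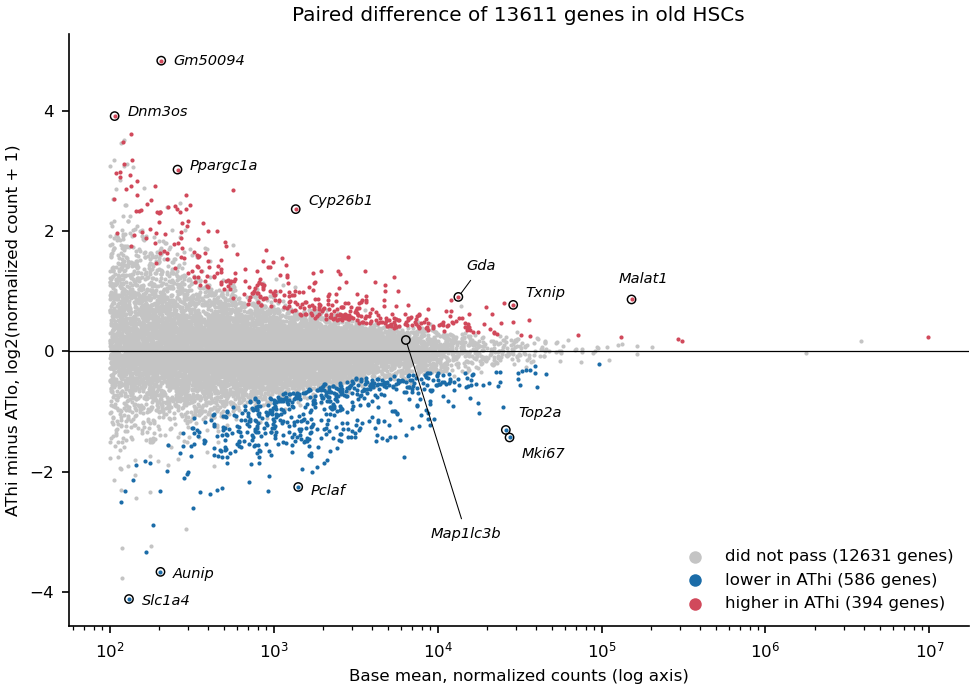
Difference between the AThi and ATlo fractions of old HSCs, fitted over 3 mice on the log2(normalized count + 1) scale, against the base mean of each gene on a log axis, with 586 genes lower in AThi in blue, 394 higher in red and the rest in grey. The falls of Mki67, Top2a and Pclaf lie clear of the grey band at their level, while Map1lc3b, the gene of LC3B, lies within it.

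The lists of genes split by role. Of 364 tested genes of the cell cycle and DNA, 229 fell and 0 rose, with a median difference of -1.06. That median was -0.999 in mouse O10, -1.15 in O11 and -0.893 in O12. Of 156 genes of stem cell state, 34 rose and 2 fell (median 0.239), and of 184 genes of signalling and stress, 21 rose and 0 fell (median 0.248). Of 574 genes of metabolism and protein supply, 59 fell and 5 rose (median -0.226). Among 160 genes of autophagy and nutrient sensing, 12 rose and 0 fell (median 0.152). A further 623 genes that passed, 327 higher and 296 lower, are in none of the lists.

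**Figure D2:**
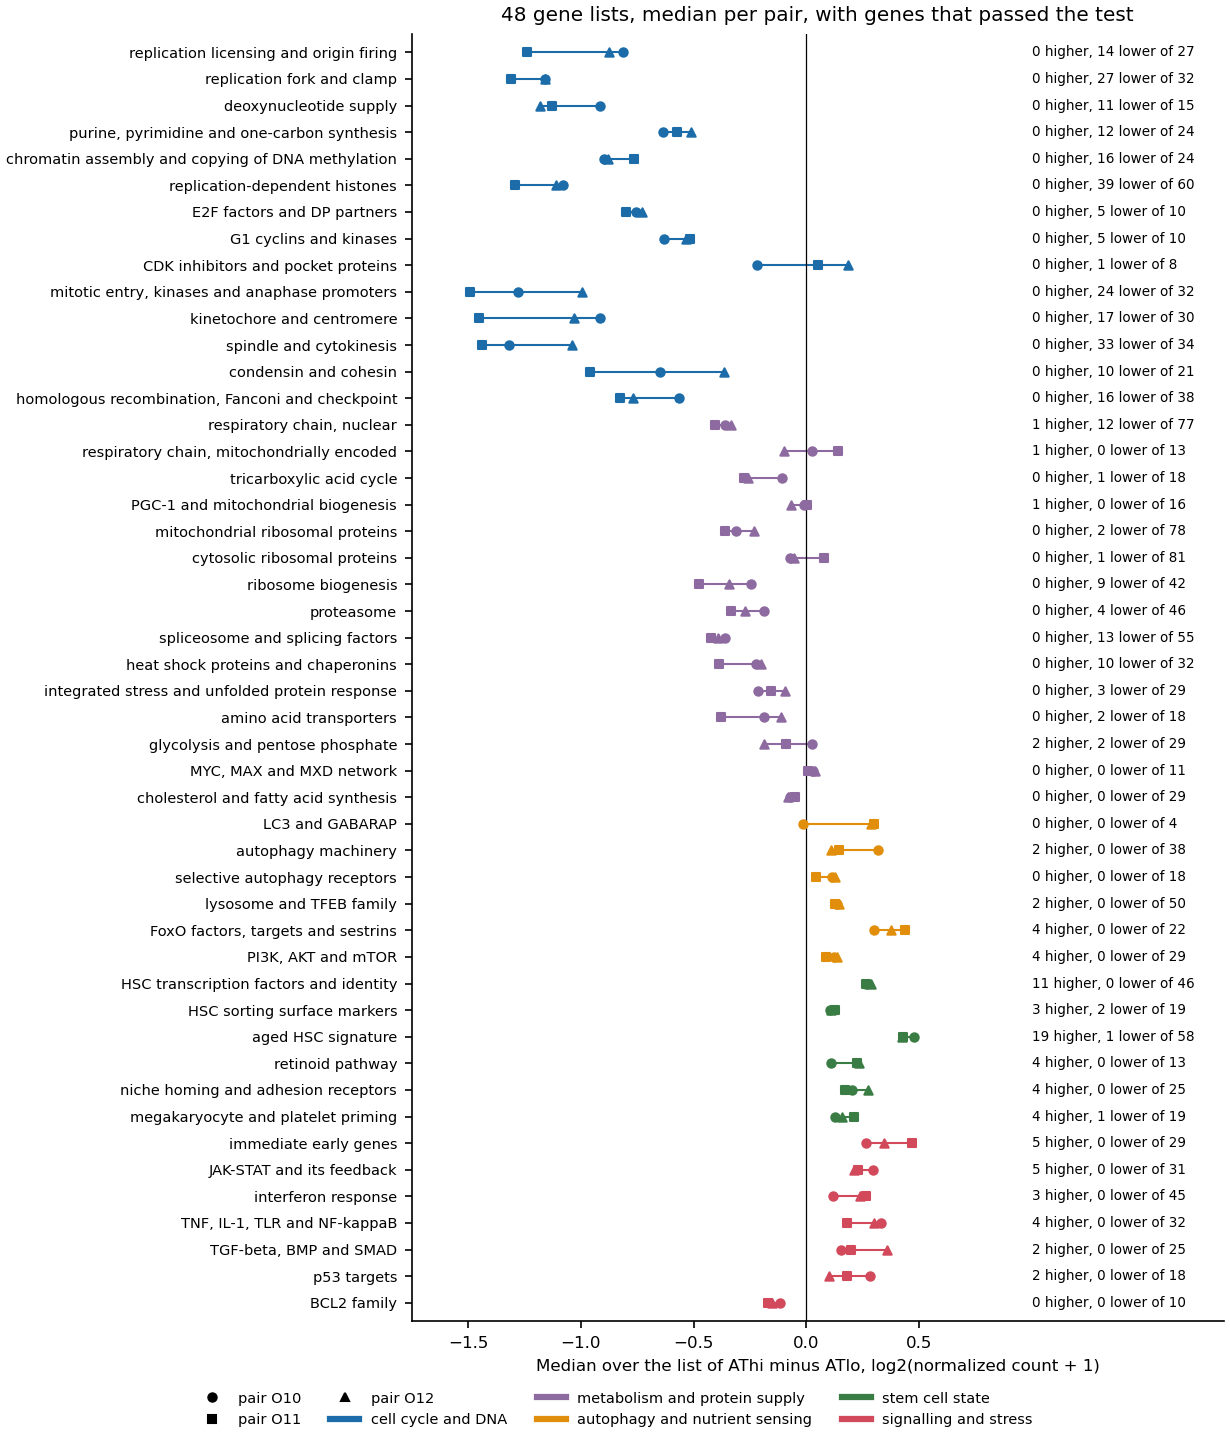
Median difference between AThi and ATlo over the tested genes of each of 48 lists, on the log2(normalized count + 1) scale, with 1 symbol per mouse, a line over their range, and the genes that passed in each direction at the right. The lists of DNA replication and mitosis sit left of 0 in all 3 mice, and those of stem cell state lie right of it.

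Many DNA replication genes were lower in AThi. Of 27 genes of origin licensing and firing 14 fell (median -0.993), and of 32 genes of the fork and its clamp 27 fell (median -1.21), with 0 higher in either list. Pclaf (chromosome 9, 65890237 to 65903266, GRCm38), which binds the sliding clamp PCNA, was at 441, 535 and 481 normalized counts in AThi of mice O10, O11 and O12, and at 2401, 2217 and 2342 in ATlo. The 2 fractions were far from overlapping, and the difference was -2.26 (SE 0.18, adjusted p = 0.00089). Pcna itself was at 4746, 5807 and 6028 in AThi and 9959, 10591 and 12107 in ATlo, a difference of -0.98 (SE 0.09). Mcm5 (chromosome 8, 75109569 to 75128439), a subunit of the MCM2-7 helicase that opens DNA, was at 771, 872 and 1040 in AThi and 2916, 3214 and 3210 in ATlo, a difference of -1.81 (SE 0.15, adjusted p = 0.0009). All 6 subunits of that helicase fell, from Mcm7 at -0.96 to Mcm5. Ung, which removes uracil from DNA, fell by 2.32 on the log2 scale and Gins1, part of the active helicase, by 2.30. Pclaf, Pcna, Mcm5, Ung and Gins1 passed without each mouse in turn. Mcm7 did not pass without mouse O11, and the lists then gave 8 and 14 genes.

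The promoters of replication genes often hold E2F sites, the DNA letters bound by the E2F factors that switch on S phase genes. Mcm5 and Pclaf, both described above, are shown from 250 bases before the RefSeq start to 50 after it (GRCm38.p6, chr8:75109259-75109558 and chr9:65890073-65890372, both on the plus strand), with E2F matches in capitals.
Mcm5: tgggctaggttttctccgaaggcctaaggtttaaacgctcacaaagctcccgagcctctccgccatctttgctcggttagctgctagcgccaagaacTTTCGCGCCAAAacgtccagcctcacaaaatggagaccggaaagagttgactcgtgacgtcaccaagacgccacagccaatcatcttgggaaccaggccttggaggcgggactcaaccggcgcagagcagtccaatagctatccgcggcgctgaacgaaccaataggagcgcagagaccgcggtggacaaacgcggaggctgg
Pclaf: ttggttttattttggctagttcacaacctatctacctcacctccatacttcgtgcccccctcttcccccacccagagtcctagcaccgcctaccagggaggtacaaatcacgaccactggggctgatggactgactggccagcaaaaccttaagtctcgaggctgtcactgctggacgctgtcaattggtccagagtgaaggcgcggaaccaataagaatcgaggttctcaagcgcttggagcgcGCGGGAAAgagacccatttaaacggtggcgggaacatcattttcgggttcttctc
Mcm5 holds 2 overlapping matches, 1 on each strand, which start at -153 and -149 from the start site, and Pclaf holds 1 on the minus strand at -5. The E2F search took TTTCCCGC, TTTGGCGC, TTTCGCGC and TTTGCCGC on both strands. The genes that fell in the lists of licensing and firing, the fork and deoxynucleotide supply together are called replication genes here. A gene counted if any of its promoters held a match. That was so for 13 of 43 replication genes with a promoter entry (30.2%) and for 4.91% of the 9376 tested genes with one. It was so for 15.3% of all genes that fell (70 of 458) and for 1.56% of those that rose (4 of 257). Promoters per gene were 1.16, 1.27, 1.15 and 1.35 in these groups, in that order.

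Genes of mitosis made up the other large block. In the list of spindle and cytokinesis 33 of 34 genes fell (median -1.25), in that of mitotic entry 24 of 32 (median -1.31), and in that of the kinetochore 17 of 30 (median -1.34). None of these rose, and the values of 33, 27 and 25 genes in the lists had every ATlo library above every AThi library. Mki67 (chromosome 7, 135689784 to 135716361), whose protein coats mitotic chromosomes and marks cycling cells, was at 14140, 14501 and 20394 in AThi and 40270, 42789 and 47738 in ATlo. Its difference of -1.43 (SE 0.08) and that of Top2a, at -1.31 (SE 0.08), had the smallest adjusted p of all genes, at 0.00017. Top2a, the topoisomerase that untangles replicated chromosomes, was at 14373, 14353 and 15707 in AThi and 34376, 40016 and 35700 in ATlo. Kif11, the motor that separates spindle poles, was at 2213, 2561 and 4161 in AThi and 9198, 10417 and 9528 in ATlo, a difference of -1.76 (SE 0.16). In all 3 genes AThi of mouse O12 was the highest AThi library. Tuba1b, an alpha-tubulin, fell by 1.02 and Ube2c, which feeds the anaphase-promoting complex, by 1.86. These 5 genes passed without each mouse in turn. Without mouse O11 the lists gave 17, 10 and 6 genes, and Spc24, an anchor of kinetochores that fell by 2.37, and Plk1, a mitotic kinase that fell by 1.77, no longer passed.

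Mitotic genes are known for a CHR element (TTTGAA) near the start, bound by the DREAM and MuvB complexes, often beside CCAAT boxes. Ccnb2 and Cdk1, the B-type cyclin and the kinase that drive entry into mitosis, are shown over the same 300 bases (chr9:70421505-70421804 and chr10:69352863-69353162, both read on the minus strand), with CHR and CCAAT matches in capitals and, in Cdk1, also an E2F match.
Ccnb2: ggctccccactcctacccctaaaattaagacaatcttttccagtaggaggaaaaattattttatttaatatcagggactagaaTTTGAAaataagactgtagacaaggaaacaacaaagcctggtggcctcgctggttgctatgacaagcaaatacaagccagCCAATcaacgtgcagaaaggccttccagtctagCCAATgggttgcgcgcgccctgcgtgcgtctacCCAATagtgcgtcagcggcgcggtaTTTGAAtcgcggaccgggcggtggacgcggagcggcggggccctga
Cdk1: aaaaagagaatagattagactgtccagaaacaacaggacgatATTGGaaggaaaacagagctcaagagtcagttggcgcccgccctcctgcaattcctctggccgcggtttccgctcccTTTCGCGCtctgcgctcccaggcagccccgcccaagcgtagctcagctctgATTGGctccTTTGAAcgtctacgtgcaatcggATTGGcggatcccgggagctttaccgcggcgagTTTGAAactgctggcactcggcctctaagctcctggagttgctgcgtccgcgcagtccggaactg
Ccnb2 holds CHR matches at -167 and 5 and CCAAT matches at -87, -54 and -21. Cdk1 holds CHR matches at -71 and -15 and its E2F match at -131. Ccnb2 was at 1459, 1453 and 2741 in AThi and 3210, 4401 and 4927 in ATlo (difference -1.19, SE 0.16). Cdk1 was at 887, 706 and 615 against 2113, 2217 and 1816 (difference -1.49, SE 0.17). Neither gene's fractions overlapped, and both passed without each mouse in turn. Over both strands, CHR stood in 41 of 63 mitosis genes that fell and have a promoter entry (65.1%), at 1.05 promoters per gene. The share was 14.0% of the replication genes that fell, 14.4% of genes that rose and 14.8% of all tested genes. CCAAT stood in 71.4% of the mitosis genes that fell and in 43.6% of all. These shares describe letters in a window and were not tested.

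**Figure D3:**
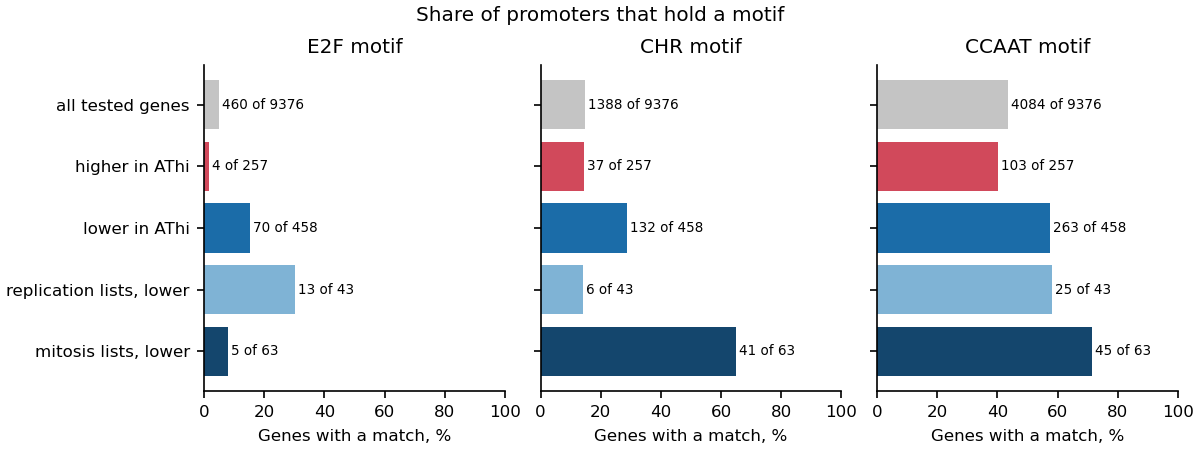
Percent of genes with at least 1 match to each motif in RefSeq promoters of 300 bases, by group of genes, with the number of genes beside each bar. The E2F bar is longest for replication genes that fell (30.2%) and the CHR bar for mitosis genes that fell (65.1%).

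The factors and kinases that act before S phase fell in part. Of 10 E2F and DP genes 5 fell: E2f1, E2f2, E2f7, E2f8 and the partner gene Tfdp1. E2f1 was at 205, 218 and 292 in AThi and 898, 1104 and 1201 in ATlo (difference -2.17, SE 0.24, adjusted p = 0.0012). The remaining E2F genes did not pass, among them E2f3 (-0.52, adjusted p = 0.093) and the repressor E2f4 (-0.55, adjusted p = 0.078). Of 10 G1 cyclins and kinases 5 fell. Cdk6, the kinase whose level sets how readily HSCs leave quiescence, was at 31345, 44042 and 32105 in AThi and 49688, 67274 and 44603 in ATlo (difference -0.58, SE 0.06, adjusted p = 0.0011). Both libraries of mouse O11 were the highest of their fraction, and without the block Cdk6 had an adjusted p of 0.089. Cyclin D2 (Ccnd2) was slightly higher in AThi at 0.15 (SE 0.08, adjusted p = 0.32). E2f1, E2f8, Tfdp1 and Cdk6 passed without each mouse in turn, whereas E2f7 did not pass without O11, and E2f2, Cdk4 and Ccne2 did not pass without O11 or without O12.

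Of the inhibitors of cyclin-dependent kinases few passed. Of 8 tested genes of inhibitors and pocket proteins, 0 rose and 1 fell, the pocket protein gene Rbl1 (-0.61, SE 0.12), which did not pass without O11 or without O12. Cdkn1a, encoding p21, was at 319, 375 and 341 in AThi and 607, 379 and 323 in ATlo, and the fractions overlapped. Cdkn1b, encoding p27, was at 1449, 2146 and 2452 against 1117, 1225 and 1716, higher in AThi of each mouse (0.57, 95% interval 0.21 to 0.92, adjusted p = 0.064). Cdkn1c, encoding p57, was at 1136, 1574 and 1320 against 1087, 803 and 926 (0.51, 95% interval 0.05 to 0.98, adjusted p = 0.17). Rbl2, encoding the pocket protein p130 of quiescent cells, was at 0.38 (SE 0.10, adjusted p = 0.051). The 95% intervals of p27 and p57 exclude 0 while their adjusted p do not pass. In this list 2 genes passed by edgeR with the block, 3 by DESeq2 with the block and 2 by limma without mouse O10.

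Genes of the supply for DNA synthesis also fell in part. Of 15 genes of deoxynucleotide supply 11 fell, among them both main subunits of ribonucleotide reductase, the enzyme that makes DNA building blocks. Rrm1 was at 4148, 4600 and 4562 in AThi and 9991, 10880 and 10490 in ATlo (difference -1.24, SE 0.09, adjusted p = 0.00072). Rrm2 was at 457, 828 and 665 against 2479, 2536 and 2652 (difference -2.01, SE 0.19). The replicates of each fraction of Rrm1 lay close together. In purine, pyrimidine and one-carbon synthesis 12 of 24 fell (median -0.586), including Psat1 of serine synthesis at -0.90 and Mthfd2 of the mitochondrial folate cycle at -1.90. Neither Psat1 nor Mthfd2 passed without O11, and that list then gave 1 gene.

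Many histone genes and genes that copy chromatin fell too. Of 60 replication-dependent histone genes 39 fell (median -1.2, 59 of 60 below 0), and of 24 genes of chromatin assembly and maintenance of DNA methylation 16 fell (median -0.871). H2ac15 was at 331, 537 and 412 in AThi and 1301, 1984 and 1033 in ATlo (-1.73, SE 0.22). Histone genes have near-identical copies, so single members are uncertain. Uhrf1, which guides DNA methylation to newly made strands, was at 673, 745 and 745 in AThi and 2140, 3420 and 2842 in ATlo (-1.93, SE 0.17), and its partner Dnmt1 fell by 1.13. The methyltransferase Ezh2 fell by 0.58, and its paralog Ezh1, typical of non-dividing cells, rose by 1.29 (SE 0.18), with 4447, 3465 and 3586 in AThi and 1297, 1889 and 1528 in ATlo. Ezh1 is in no list here and was picked after its values were seen. Ezh1, Uhrf1, Dnmt1 and H2ac15 passed without each mouse in turn, Ezh2 did not pass without O10 or without O11, and the histone list gave 13 genes without O11.

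DNA repair by homologous recombination, which acts on replicated DNA, showed 16 falls among 38 genes (median -0.777). Chek1, the kinase of the replication checkpoint, was at 471, 414 and 726 in AThi and 1860, 1828 and 2437 in ATlo (-1.95, SE 0.18). Brca1 fell by 1.49. Aunip, which helps repair broken DNA, had the second largest fall of all named genes, at 10.2, 54 and 39.8 in AThi and 369, 457 and 306 in ATlo (-3.67, SE 0.58). Chek1 and Brca1 passed without each mouse in turn, Aunip did not pass without O11, and 7 genes of the list then did.

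**Figure D4:**
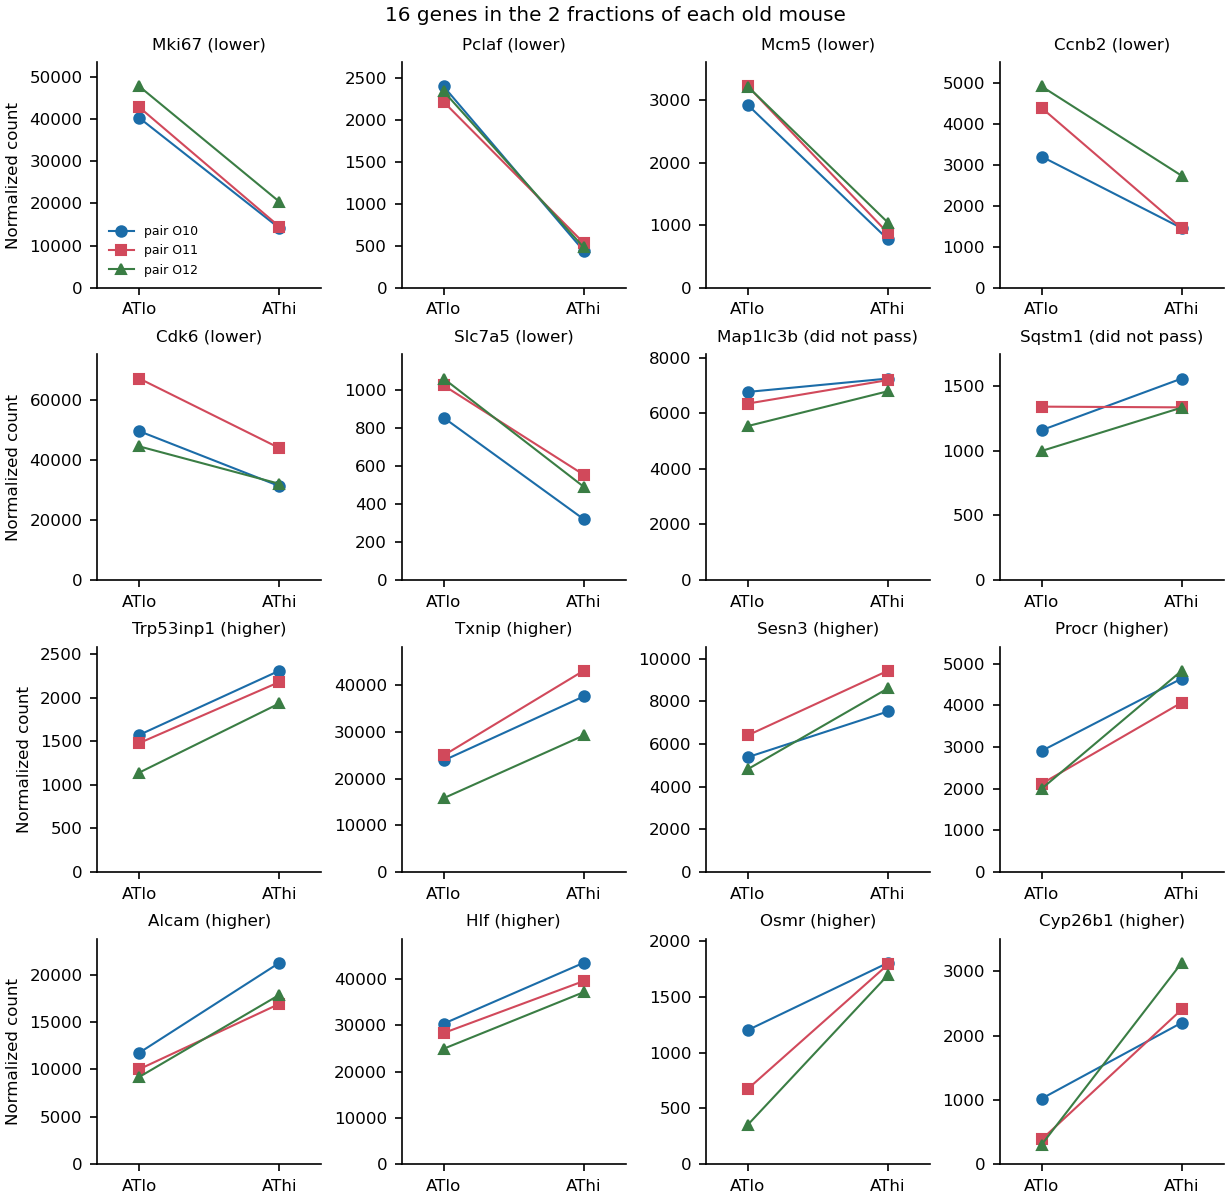
Normalized counts of 16 genes in the ATlo and AThi fraction of each old mouse, joined by a line per mouse, with the outcome of the paired test in each title. All 3 lines run the same way in the 14 genes that passed, steeply downward in Pclaf and Mcm5, and the line of mouse O11 is almost level in Sqstm1.

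Fewer genes of mitochondria and of ribosomes passed. The nuclear genes of the respiratory chain, which makes most ATP of the cell, had a median of -0.362, and 74 of 77 lay below 0. Of these 77, 12 fell and 1 rose, and 49 had every ATlo library above every AThi library, against 13.5% of all tested genes. Atp5g3, a subunit of the ATP synthase rotor, was at 2706, 3110 and 2930 in AThi and 4836, 4475 and 4800 in ATlo (-0.69, SE 0.12), and passed without each mouse in turn. Cycs, which encodes the electron carrier cytochrome c, fell by 0.97 and Cox7b, of complex IV, by 0.62. The gene that rose was Cox7a2l, a factor in supercomplex assembly, at 0.39. The 13 genes of the mitochondrial genome had a median of 0.0514. One of them, mt-Co1, rose by 0.18 (SE 0.04), and its fractions overlapped because both libraries of mouse O11 were low. Cycs, Cox7b, Cox7a2l and mt-Co1 did not pass without O11 or without O12, Cox7a2l and mt-Co1 not without O10 either, and the nuclear list gave 1 gene without O11 and 4 without O12. Mitochondrial ribosomal proteins had a median of -0.326 with 2 of 78 lower (2.56%). Cytosolic ribosomal proteins had a median of -0.0196 with 1 of 81 lower (1.23%). Both shares lie below the 4.31% of all tested genes that fell. Ppargc1a, which encodes the coactivator PGC-1α of mitochondrial biogenesis, went the other way, at 959, 291 and 245 in AThi and 89.6, 69.9 and 18.7 in ATlo (3.03, SE 0.47, adjusted p = 0.0065). It passed without each mouse in turn and was the only gene of its list of 16 to pass.

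**Figure D5:**
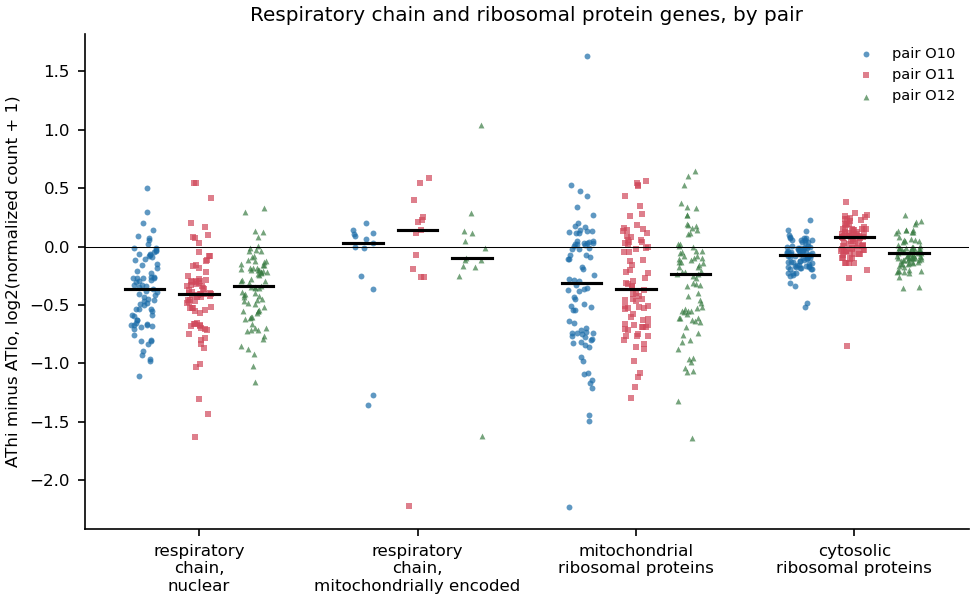
Difference between AThi and ATlo in each mouse, on the log2(normalized count + 1) scale, for the tested genes of 4 lists, with 1 point per gene and mouse and a black bar at each median. The bars of nuclear respiratory chain genes lie below 0 in each mouse, while those of the mitochondrial genome and of cytosolic ribosomal proteins lie near it.

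Some genes of ribosome assembly, splicing and chaperones fell. Of 42 genes of ribosome biogenesis 9 fell (median -0.375), of 55 genes of splicing 13 fell (median -0.392), and of 32 chaperone genes 10 fell (median -0.305). Srsf1, a factor that recruits the spliceosome, was at 5029, 6119 and 7876 in AThi and 9025, 11705 and 12667 in ATlo (-0.82, SE 0.09). Its value was lowest in mouse O10 and highest in O12 in both fractions. Hsp90aa1, the inducible HSP90, fell by 0.56 and Nop56, a core protein of the particles that modify ribosomal RNA, by 0.71. Ran, the GTPase of nuclear transport, fell by 1.03 and is in no list. Of 46 proteasome genes 4 fell. Srsf1, Hsp90aa1 and Ran passed without each mouse in turn. Nop56 did not pass without O11, where the lists of ribosome biogenesis, splicing, chaperones and proteasome gave 0, 5, 1 and 0 genes.

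Of transcripts of the autophagy pathway itself, 0% to 5.26% per list passed between fractions sorted on autophagy, against 7.2% of all tested genes. Map1lc3b (chromosome 8, 121590361 to 121598760), which encodes the LC3B protein, was at 7254, 7200 and 6798 in AThi and 6773, 6354 and 5544 in ATlo. The AThi libraries lay above the ATlo ones, but the difference of 0.19 (95% interval -0.03 to 0.41) did not pass (adjusted p = 0.27). Gabarapl1, of the same ubiquitin-like family, was at 4425, 5259 and 4438 against 4027, 3942 and 3624 (0.28, 95% interval 0.03 to 0.53, adjusted p = 0.17). Sqstm1, encoding the cargo receptor p62 that is itself degraded by autophagy, overlapped between the fractions at 1557, 1334 and 1333 against 1158, 1340 and 997. Ulk1, the kinase that starts autophagy, was at 0.31 (95% interval -0.06 to 0.69), and Tfeb, the master factor of lysosome genes, at -0.63 (95% interval -1.71 to 0.44). Map1lc3a had a base mean below 100 and was not tested. Of 4 LC3 and GABARAP genes and 18 cargo receptors, 0 passed by limma. Of 38 genes of the machinery 2 rose (5.26%), and of 50 lysosome genes 2 rose (4.0%), where 2.89% of all tested genes rose. At an unadjusted p below 0.05 there were 1 LC3 or GABARAP gene and 3 receptors, edgeR with the block gave 0 of either, and DESeq2 with the block gave 0 and 3.

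The 4 that rose were modest. Trp53inp1, which binds LC3 and GABARAP and is a target of p53, was at 2311, 2181 and 1936 in AThi and 1574, 1481 and 1142 in ATlo (0.62, SE 0.15, adjusted p = 0.036). Rb1cc1, encoding the scaffold FIP200 of the ULK1 complex, was at 9781, 8536 and 9184 against 7906, 6772 and 6690 (0.37, SE 0.09, adjusted p = 0.042). Asah1, the lysosomal ceramidase, rose by 0.49 and Mitf, a relative of Tfeb, by 0.96 (adjusted p = 0.045). The fractions overlapped in Asah1 but not in the other 3 genes. None of the 4 passed without O11 or without O12, and Trp53inp1, Rb1cc1 and Mitf did not pass without O10 either.

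FoxO factors keep HSCs quiescent when insulin and growth factor signals are low. In the list of these factors, their targets and the sestrins, 4 of 22 rose, 0 fell and 3 lay below 0 (median 0.394). Txnip (chromosome 3, 96557957 to 96561883), which slows glucose uptake and binds thioredoxin, was at 37639, 43150 and 29268 in AThi and 23907, 24999 and 15823 in ATlo (0.78, SE 0.07, adjusted p = 0.00093). Mouse O12 was lowest in both fractions. Its promoter (GRCm38.p6, chr3:96557707-96558006, plus strand) holds 1 match to the FoxO letters GTAAACA, in capitals, at -121.
Txnip: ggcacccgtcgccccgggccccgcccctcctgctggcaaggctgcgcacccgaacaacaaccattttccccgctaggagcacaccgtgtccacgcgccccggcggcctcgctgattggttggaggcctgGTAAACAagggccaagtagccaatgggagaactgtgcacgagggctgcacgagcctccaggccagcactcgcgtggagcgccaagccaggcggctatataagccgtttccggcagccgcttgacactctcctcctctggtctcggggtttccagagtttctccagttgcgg
The same letters stood in promoters of 3.1% of all tested genes with a promoter entry, and of 2 of 17 genes of this list. Sesn3, a sestrin that restrains mTORC1, was at 7527, 9436 and 8610 in AThi and 5385, 6411 and 4825 in ATlo (0.63, SE 0.10). S1pr1, the receptor for exit signals to the blood, was at 1610, 1681 and 1926 against 735, 538 and 1001 (1.24, SE 0.19). Foxo3 itself was at 0.11 (95% interval -0.13 to 0.35). Txnip and the early response gene Klf6 passed without each mouse in turn, while Sesn3 and S1pr1 did not pass without O11. Arrdc4, a paralog of Txnip that is in no list, rose by 0.95 and did not pass without O11.

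Growth factor and nutrient genes moved in both directions. In the PI3K, AKT and mTOR list 4 of 29 rose and 0 fell (median 0.0595). Pik3r1, the regulatory subunit of PI3 kinase, was at 25886, 27923 and 23292 in AThi and 17251, 18772 and 14388 in ATlo (0.62, SE 0.07, adjusted p = 0.0015), and the receptor gene Igf1r rose by 0.56. Mtor was at -0.03 (95% interval -0.31 to 0.25). Slc1a4, a transporter of serine and other neutral amino acids, had the largest fall of the named genes, at 14.6, 17.6 and 2.09 in AThi and 94.3, 394 and 126 in ATlo (-4.12, SE 0.89). Slc7a5, which imports leucine, was at 319, 553 and 490 against 852, 1022 and 1058 (-1.14, SE 0.22). Both transporters had every ATlo library above every AThi library. The other 16 transporters tested did not pass. Pik3r1 and Igf1r passed without each mouse in turn, Slc1a4 and Slc7a5 did not pass without O11, and Slc7a5 not without O12.

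Few glucose genes passed. Of 29 genes of glycolysis and the pentose phosphate pathway 2 rose, Slc2a3 encoding the transporter GLUT3 (0.50) and hexokinase 2 (Hk2, 0.55). In the same list 2 fell, Tkt (-0.59) and Tpi1 (-0.55). Of all tested genes 2.89% rose and 4.31% fell. The list median was -0.0891, and without O11 the list gave 1 gene. Slc2a3 was at 5773, 5380 and 5334 in AThi and 4125, 4166 and 3418 in ATlo, with no overlap. Slc2a1, encoding GLUT1, was at 0.06 (95% interval -0.29 to 0.42). Tkt, the transketolase that makes ribose phosphate, passed without each mouse in turn, Slc2a3, Hk2 and Tpi1 did not pass without O10 or without O11, and Slc2a3 and Hk2 not without O12. Myc was at 7821, 6690 and 5679 in AThi and 7892, 8911 and 7174 in ATlo (-0.25, 95% interval -0.49 to -0.01, adjusted p = 0.19), and of its network of 11 genes 0 passed by limma, edgeR or DESeq2 with the block, with 1 at an unadjusted p below 0.05.

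A minority of the genes that define HSCs rose in AThi. Of 46 transcription factors and identity genes 11 rose and 0 fell (median 0.254), and 7 lay below 0. Hlf (chromosome 11, 90336536 to 90390895), a factor that preserves quiescence, was at 43491, 39546 and 37147 in AThi and 30339, 28326 and 24927 in ATlo (0.53, SE 0.06, adjusted p = 0.0016). Mllt3, which maintains HSC self-renewal, was at 15675, 12681 and 13819 against 10689, 8035 and 7897 (0.67, SE 0.09). Mecom, which encodes EVI1, rose by 0.59 and Runx1 by 0.41. In each of Hlf, Mllt3 and Mecom the fractions did not overlap and mouse O10 was the highest in both. Hlf, Mllt3, Mecom, Rora and Sult1a1 passed without each mouse in turn, Runx1 did not pass without O11 or without O12, and the list gave 6 genes without O11.

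Surface markers used to sort HSCs were split. Procr (chromosome 2, 155751117 to 155755471), which encodes EPCR of the most potent HSCs, was at 4646, 4070 and 4834 in AThi and 2909, 2120 and 2000 in ATlo (0.96, SE 0.14, adjusted p = 0.0049). Ly6a, encoding Sca-1, was at 3384, 5576 and 3534 against 2296, 3818 and 2180 (0.60, SE 0.12, adjusted p = 0.017), and here the fractions overlapped since mouse O11 was the highest in both. Cd34, low on mouse long-term HSCs, was at 2616, 3109 and 2266 against 3496, 4582 and 3155 (-0.48, SE 0.12, adjusted p = 0.041). Itga2b, encoding the integrin CD41, fell by 0.66. Kit (0.21, adjusted p = 0.072), Slamf1 (0.31, adjusted p = 0.17) and Flt3 (-0.30, adjusted p = 0.57) did not pass. Cd48 was at 0 in both fractions of mouse O10 and at 37.4 to 322 in the other 4 libraries. Without O11 neither Procr, Ly6a, Cd34 nor Itga2b passed, and without O12 the last 3 did not.

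Of genes known for rising in HSCs with age, some were higher in AThi than in ATlo of the same mice. Of 58 tested genes of that signature 19 rose and 1, Itga2b, fell (median 0.381), and its median was 0.478, 0.429 and 0.423 in mice O10, O11 and O12. Alcam, a cell adhesion molecule, was at 21240, 16911 and 17862 in AThi and 11754, 10019 and 9204 in ATlo (0.86, SE 0.08, adjusted p = 0.00093). Gda, a guanine deaminase, was at 19945, 19035 and 22359 against 10556, 10477 and 11587 (0.91, SE 0.07, adjusted p = 0.00089). Jam2, a junction molecule, was at 8769, 5960 and 6047 against 3298, 2890 and 3021 (1.15, SE 0.12), so each AThi value was well above each ATlo value. Gpr183, an oxysterol receptor, rose by 1.55, Dnm3, a dynamin, by 1.41, and Selp, the adhesion molecule P-selectin, by 0.53. Clu was at 2749, 2502 and 2232 against 2142, 3330 and 2450 (-0.06, 95% interval -0.43 to 0.31), with the fractions overlapping. Alcam, Gda, Jam2, Gpr183 and Dnm3 passed without each mouse in turn, Selp did not pass without O11, and the list gave 9 genes without O11. The list also holds genes of HSC identity and of platelet priming, so these counts overlap.

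Retinoic acid genes, which help hold HSCs dormant, gave 4 rises among 13 genes and 0 falls. Cyp26b1, the enzyme that clears retinoic acid, was at 2202, 2408 and 3133 in AThi and 1020, 384 and 304 in ATlo (2.37, SE 0.35, adjusted p = 0.0051). Rarb, a retinoic acid receptor and target, was at 1212, 978 and 822 against 328, 406 and 479 (1.31, SE 0.26, adjusted p = 0.018). Rara, another receptor, was at 591, 584 and 754 against 253, 168 and 441 (1.26, SE 0.29, adjusted p = 0.03). No fractions overlapped in these 3 genes. Rdh10, which makes the precursor of retinoic acid, rose by 0.77. None of the 4 passed without O11, and Rara and Rdh10 did not pass without O12.

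Cytokine receptors and early response genes rose in small numbers. In the JAK-STAT list 5 of 31 rose and 0 fell (median 0.284). Osmr, the oncostatin M receptor, was at 1805, 1790 and 1696 in AThi and 1202, 676 and 354 in ATlo (1.42, SE 0.28, adjusted p = 0.018), with AThi alike in the 3 mice, ATlo spread widely and no overlap. Il6st, encoding the shared chain gp130, was at 5101, 5728 and 6319 against 3862, 4090 and 4095 (0.50, SE 0.11). Socs3, their feedback inhibitor, was at 400, 724 and 510 against 332, 313 and 247 and did not pass (0.84, 95% interval 0.19 to 1.49, adjusted p = 0.12). Of 29 immediate early genes 5 rose (median 0.339), among them Egr1 at 5003, 4092 and 3099 against 3195, 2081 and 2256 (0.69, SE 0.14). Egr1 and Jun (0.54) also respond to cell handling. Interferon response genes gave 3 rises among 45 and the NF-kappaB list 4 among 32, where 2.89% of all tested genes rose. Without O11, the JAK-STAT, immediate early, interferon and NF-kappaB lists gave 0, 1, 1 and 0 genes, and of the genes named here Osmr, Il6st, Egr1 and Jun did not pass.

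Other large rises fell outside the lists. Limch1, an actomyosin regulator, was at 329, 172 and 533 in AThi and 55, 31.8 and 44.3 in ATlo (2.84, SE 0.49), and Xdh, xanthine oxidoreductase of purine breakdown, at 357, 411 and 421 against 77, 97.6 and 63 (2.33, SE 0.38). Inhba, a subunit of activin, rose by 2.00 and Bmp4, a bone morphogenetic protein, by 1.60. Ahnak, a large scaffold protein, was at 4201, 5604 and 6911 against 2175, 2007 and 2276 (1.34, SE 0.15). Xdh, Inhba, Bmp4 and Ahnak were picked after their values were seen. Abi3bp rose by 2.90, Shroom2 by 2.97 and Mmp28 by 2.76, also from low levels. None of these 3 passed without O11, and Abi3bp and Shroom2 did not pass without O12. Dnm3os, at 521, 55.1 and 158 against 36.9, 0 and 34.2 (3.92, SE 0.92), lies antisense within Dnm3, and since the strand setting of the counting is not given here its reads cannot be told from those of Dnm3. Inhba and Ahnak passed without each mouse in turn, Limch1 did not pass without O12, Xdh, Bmp4 and Dnm3os not without O11, and Mmp28 and Dnm3os not without O10.

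Transcript class moved with the fraction. Of 376 tested genes that GENCODE classes as TEC, models of uncertain status that await experimental checks, 36 rose and 1 fell, with a median of 0.82 (0.426, 0.966 and 0.769 in the 3 mice), and the 27 sense intronic RNAs had a median of 0.934. Protein coding genes had a median of -0.0112. Malat1, a nuclear noncoding RNA, was at 202190, 165860 and 198060 in AThi and 134020, 80310 and 101680 in ATlo (0.87, SE 0.08), and Neat1, also nuclear, rose by 1.16. Malat1 passed without each mouse in turn, whereas Neat1 did not pass without O11 or without O12. By exon length, cut into 5 classes of equal size, the shortest class of tested genes had a median of -0.0963 and the longest 0.108. Processed pseudogenes, which share reads with their parent genes, gave 24 falls and 1 rise among 932. Both shares lie below those of all tested genes, of which 4.31% fell and 2.89% rose. The part of these classes in the rises of long genes and the falls of short ones was not tested.

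Single markers of other blood cells passed, where 2.89% of all tested genes rose and 4.31% fell. Lists this short cannot set 1 gene apart from those shares. Of 5 tested B cell markers 1, Cd74, rose (0.70), of 6 T and NK cell markers 1, Klrb1c, rose (1.27), and of 4 stromal and endothelial markers 1, Kdr, rose (1.66). Of 6 erythroid markers 1, Car2, fell (-0.36), and of 4 megakaryocyte markers 1, Itga2b, fell. Of 6 granulocyte markers and of 6 monocyte and macrophage markers 0 passed. Car2, at 32381, 28368 and 23965 in AThi and 38009, 40295 and 30280 in ATlo, made up most of the summed erythroid level. The summed level was 49.77 to 210.3 in AThi and 228.6 to 612.9 in ATlo for the 2 mast cell and basophil markers in the table, and 2690 to 3354 against 1505 to 1997 for T and NK cell markers. It was 4030 to 5002 against 5583 to 8099 for megakaryocyte markers, and 7658 to 9303 against 6834 to 8068 for granulocyte markers. Within the megakaryocyte sum, Gp1ba and Gp9 were higher in AThi of O10 and lower in AThi of O11 and O12. The separate list of megakaryocyte and platelet priming gave 4 rises and 1 fall among 19 genes (median 0.15), and 1 gene without O11. Klrb1c, at 2354, 2730 and 1284 in AThi and 859, 950 and 721 in ATlo, was the largest part of the T and NK cell sum. Nkg7 was lower in AThi of every mouse, at 243, 392 and 316 against 393.6, 457.3 and 532.5. Cd4 was higher in AThi of each, but in O11 at only 2.202 against 0.7939 normalized counts, near the floor. Trac, Lck and Ccl5 went both ways between mice. Pax5, Cd3e and Elane, which define B cells, T cells and granulocytes, are not rows of the table used here. Cd74, Klrb1c, Kdr and Car2 did not pass without O11. The part of these cells in the results was not tested.

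The authors' deposited table of upstream regulators gives an activation score to 350 of 726 regulators for this contrast, with 62 labelled Activated and 88 Inhibited. In the authors' deposited table E2F1 has a score of -3.991, FOXM1 -4.642 and MYBL2 -3.261, all labelled Inhibited. The mRNA of each fell in the paired test, with a difference of -2.17 for E2f1, -1.34 for Foxm1 and -2.10 for Mybl2. Foxm1 and Mybl2 did not pass without mouse O11. The authors' deposited table also labels MITF Inhibited (-4.443) although Mitf mRNA rose by 0.96. Of the 56 regulators labelled Inhibited whose mRNA was tested here, 10 fell and 5 rose, and of the 36 labelled Activated 2 fell and 2 rose. The shares over all tested genes were 4.31% for falls and 2.89% for rises. The scores come from the same libraries and are not independent of the counts here.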

How the data were processed

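RNA of about 10000 sorted HSCs per library was sequenced as paired reads of 50 bases after low-input library preparation, per the labels. The submitters' processing notes name FastQC, MultiQC, STAR, featureCounts, DESeq2 and GRCm38, but no versions. The annotation and the strand mode of counting are likewise not given. The values used are a signal that the authors deposited, gene counts divided by 1 size factor per library, and whole reads were recovered for 100% of values (tolerance 0.01 reads). Of these counts 63.8% to 66.6% per library were even, and whether the 2 mates of a pair were counted singly was not tested, so recovered reads may exceed the fragments. The authors' deposited table also gives log2 fold changes, a test score and p-values for AThi against ATlo from a fit without the mouse, and a second deposited table gives an activation score, an overlap p-value and a log2 ratio for upstream regulators.

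Here log2(normalized count + 1) of the 6 old libraries was fitted with limma 3.58.1 (R 4.3.3), with trend and the mouse as a block. Genes were tested from a base mean of 100 upward, and an adjusted p below 0.05 (Benjamini-Hochberg over all 13611) passed. Differences are on that scale, which understates changes of low genes. edgeR 4.0.16 and DESeq2 1.42.0 with the block on recovered reads, other pseudocounts, filters and scalings, and each mouse left out were alternatives. The block follows the tags in the file headers, which are not the labels' replicate numbers, and the labels call the old samples paired. Deviations from the group means correlated at 0.209, 0.164 and 0.373 within mice O10, O11 and O12, and at -0.232 to 0.0301 between different mice. The deviations of a fraction cancel over the 3 mice, so positive values within mice lower those between mice by construction. Each limma p-value rests on the spread over 3 mice, moderated toward a variance trend fitted over all tested genes. The total degrees of freedom had a median of 9.335, most of them borrowed from that trend.

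The comparison and the gene lists were chosen with earlier results of these data known. Genes were named by a rule: the 12 largest rises and falls and the 6 smallest adjusted p in each direction among genes that passed, leaving out predicted and mitochondrial genes and pseudogenes, up to 4 members per list, and a set of autophagy, cell cycle and HSC genes whatever their p. Named outside that rule, after their values were seen, were Mcm7, Plk1, Ccnb2, Cdk1, E2f2, E2f3, E2f4, Ccnd2, Rbl2, Mthfd2, H2ac15, Ezh1, Ezh2, Cycs, Cox7a2l, Ran, Arrdc4, Mtor, Mecom, Runx1, Rora, Gpr183, Dnm3, Jun, Xdh, Inhba, Bmp4, Ahnak, Neat1, Xist, Foxm1 and Mybl2. Positions come from GENCODE M21 by Ensembl ID (13491 tested genes matched) and promoters from RefSeq. Contrasts with the young libraries were not used here, but those libraries count in the base mean that chose the tested genes.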

Additional observations from a re-analysis of the deposited data

Results flagged for a closer look

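Genes below the minimum of the paired test were searched for reads in all 3 libraries of one fraction and 0 in the other. Alpl, alkaline phosphatase, had 26, 300 and 42 recovered reads in ATlo of mice O10, O11 and O12 (368 in all) and 0 in AThi. Sorcs1, a sorting receptor gene, had 30, 4 and 106 reads in AThi (140 in all) and 0 in ATlo. Ptprd, a receptor phosphatase gene, had 86, 14 and 6 in AThi (106 in all) and 0 in ATlo. The predicted genes Gm43864 and Gm13859 had 90 and 42 reads in AThi and 0 in ATlo, and Gm43414 had 58 in ATlo and 0 in AThi. These differences were not tested, and the reads may exceed the fragments, since most recovered counts were even.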

How the results depend on the processing

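Of 980 genes, 394 higher and 586 lower in AThi, other settings gave these counts. Without the replicate block, 505 passed, 151 higher and 354 lower, and 504 of them were among the 980. Without a filter on low values 461 passed, 161 higher and 300 lower. DESeq2 with the replicate block gave 1865, 910 higher and 955 lower, with all 980 among them. Leaving out each mouse gave 211 to 937 genes, 62 to 369 higher and 149 to 568 lower. The smallest counts were without mouse O11, where 208 of the 211 were among the 980. The cause was not tested. Of 159 named genes that passed, 49 did not pass without the replicate block, 48 without the filter, 5 by edgeR, 15 in the authors' deposited table, and 25, 84 and 46 without O10, O11 and O12. None of them reversed under these settings. With TMM factors 0 of 48 lists changed the sign of their median, and the median of all genes was -0.0155. Fits on 2 pairs have few degrees of freedom, and AThi libraries were shallower than ATlo in every mouse.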
